A study of Mus musculus with 12 samples.

Results

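The 37 genes described here are genes of granule neuron differentiation and of the synapse, taken by symbol from a list and read from the deposited expression table of a mouse medulloblastoma study. All 37 were among its 15650 gene rows, and all 37 passed the filter on low values that left 14126 genes to test. Medulloblastoma is a tumour of the cerebellum, and the tissue was labelled MB and taken at end point. Each of the 12 bulk RNA-seq libraries gave 8833862 to 9459532 estimated reads. SG tumours carried fSMO-M2, a conditional allele of an activated Smoothened, with hGFAPcre, in which the human GFAP promoter drives Cre recombinase. YSGr tumours carried fYap1 as well as fSMO-M2 and hGFAPcre, and the labels add the word rescued without explaining it. Every tumour therefore carried the activated Smoothened allele and the same Cre, which acts in neural stem and progenitor cells beyond the granule lineage. Each genotype had 3 male libraries (SG 1 to 3, YSGr 7 to 9) and 3 female libraries (SG 4 to 6, YSGr 10 to 12). Ages, litters and animals were not given, so the p-values rest on the spread among these libraries alone, some of which may be technical.

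Cerebellar granule neurons arise from progenitors that divide under Sonic hedgehog signalling through Smoothened and that express Atoh1. As they leave the cell cycle they switch on Neurod1, extend parallel fibres, migrate inward, and later install the machinery of glutamatergic synapses, which includes vesicle proteins, the fusion apparatus, the transporter VGLUT1 and the cerebellin bridge to Purkinje cells. Medulloblastomas driven by Smoothened resemble the progenitors, and part of their cells can carry early or late genes of this program.

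Yap1, the gene deleted in YSGr, was at 4.29 to 4.80 log2 CPM in SG and at -0.02 to 1.82 in YSGr, with no overlap. The 11 genes listed as granule progenitor markers summed to 3950.1 to 5530.2 CPM in SG and 2906.5 to 5364.2 in YSGr. That list includes proliferation genes such as Mki67, which are not particular to this lineage. Of those 11, none rose and 5 fell in YSGr, among them Atoh1 (log2 fold change -0.59, adjusted p = 0.0076 by limma) and Gli1 (-0.82, adjusted p = 0.0018). Over all tested genes 5.27% fell. The proliferation gene Mki67 differed by -0.35 with adjusted p = 0.21. A pair of libraries stood apart. In SG male 2 the 3520 longest tested genes (6953 or more exonic bases) lay 0.97 log2 lower than the 3521 shortest relative to the other 11 libraries, against differences of -0.11 to 0.28 in each of the other 11. YSGr male 8 held the highest value of 18 of the 37 members, more than any other library. The share of all tested genes that were highest there was not counted. Of all tested genes, 32.1% lay above every SG library in YSGr male 8 and 32.8% below, the largest shares among the YSGr libraries. The part of either library's peculiarity in the results was not tested. Values without 1 or both of them are given for some members only, so a missing value does not mean that a result is independent of them.

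Averaged over the sexes, 10 of the 37 genes rose in YSGr and 1 fell at an adjusted p under 0.05 (limma, adjusted over all 14126 genes). Of all tested genes, 6.17% rose and 5.27% fell. The genes that rose were the vesicle proteins Snap25, Syt1, Syp, Sv2a and Rab3a, the adhesion genes Car10 and Nrxn3, the tubulin regulator Stmn2, the transcription factor Neurod1 and the kinase subunit Camk2b. The gene that fell was Nfix. The median log2 fold change of the 37 was 0.51, with a range of -0.42 to 1.71, and 86.5% were above 0. Over all tested genes the median was 0.00, the middle of the distribution ran from -0.19 to 0.24 (quartiles), and 49.3% were above 0. By role, 5 of the 11 vesicle and release genes rose (median 0.74), 2 of the 6 adhesion genes (0.54), 1 of the 7 migration and cytoskeleton genes (0.41) and 1 of the 4 calcium signalling genes (1.02). Of the 7 transcription and splicing genes 1 rose and 1 fell (median 0.11), and neither of the 2 vesicular glutamate transporters passed the threshold (0.45). The count of 11 called members ran from 5 to 18 in fits that each left out 1 library, with 5 without SG female 4, 5 or 6 and 18 without YSGr female 12. It was 10 with SG male 2 and YSGr male 8 both left out, 22 with library weights, and 5 without sex as a term. In bulk tissue, fewer cells of a type and less RNA per cell cannot be told apart.

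**Figure D1:**
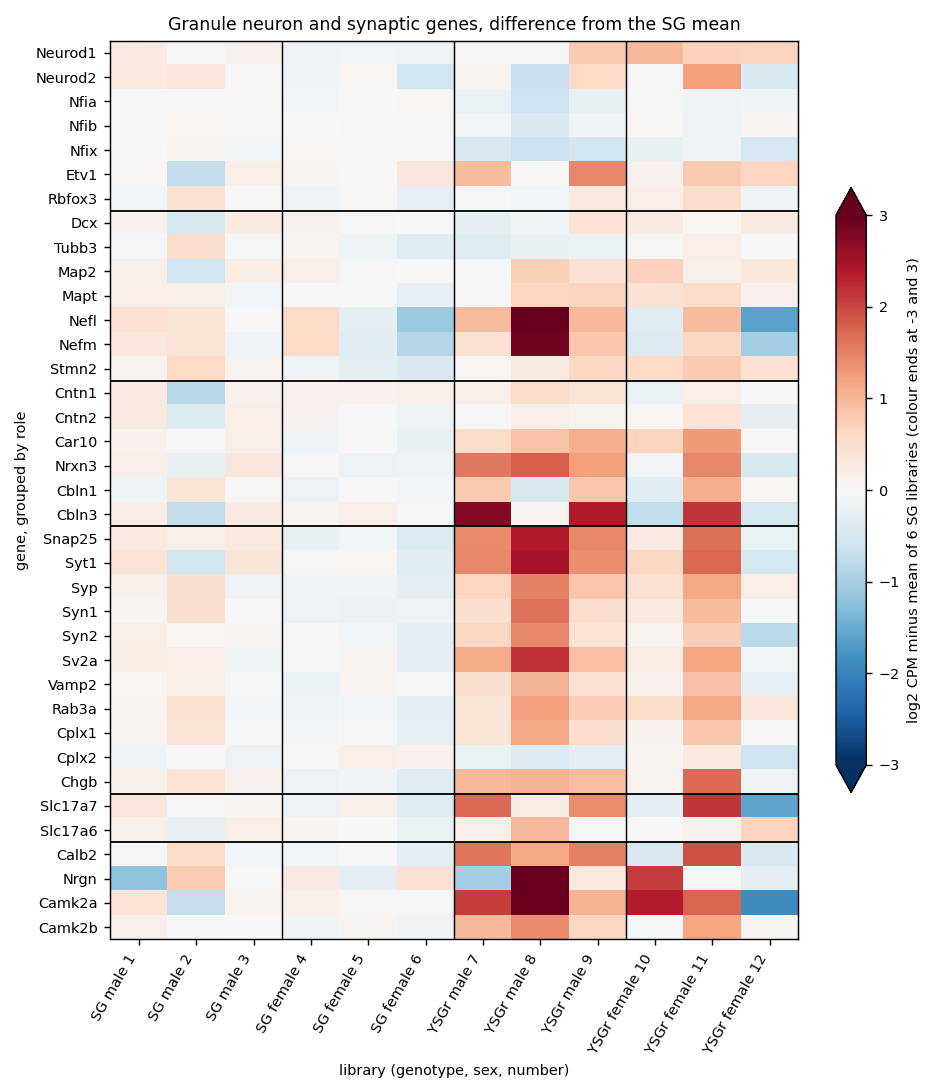
Each row is 1 of the 37 genes, each column 1 library, and the colour is log2 CPM minus the mean of the 6 SG libraries (colours end at -3 and 3, and Nrgn, Nefl and Camk2a in YSGr male 8 lie beyond the upper end). Apart from Cplx2, which is blue in YSGr males 7, 8 and 9, the vesicle rows are red in those libraries and in YSGr female 11. In YSGr females 10 and 12 these rows are paler or blue, except that Rab3a is redder in 10 than in 7. Cbln3 and Slc17a7 stand high in 7, 9 and 11.

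**Figure D2:**
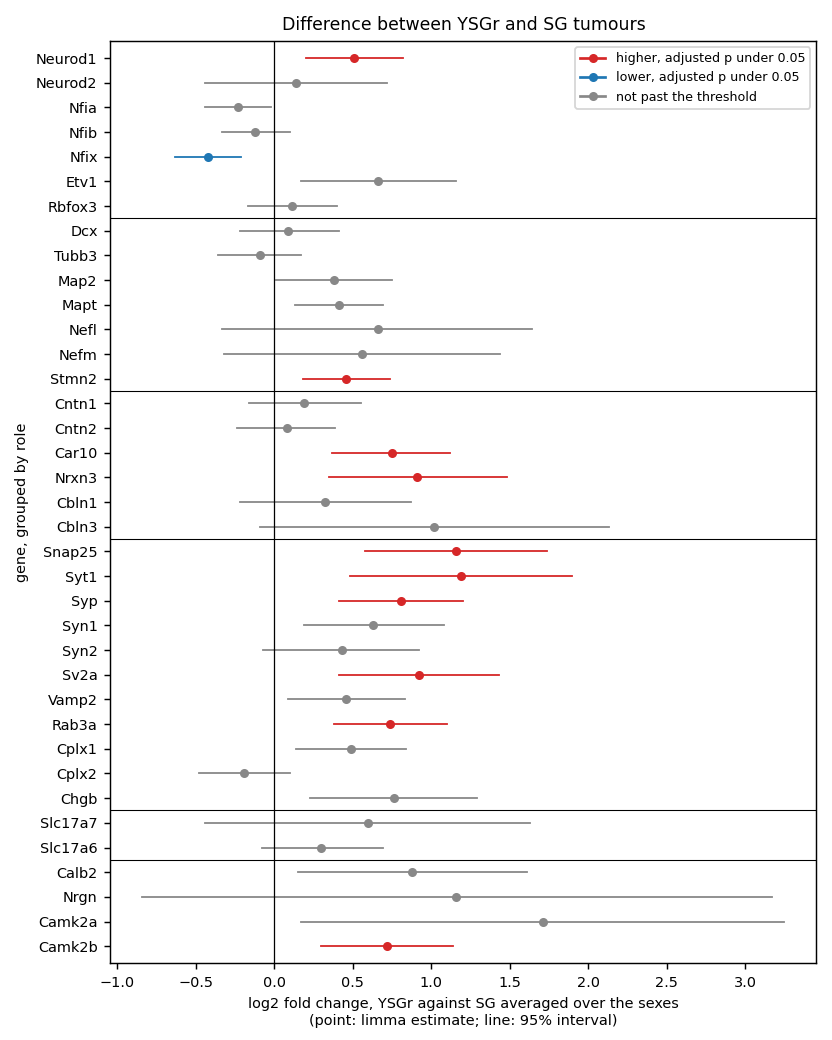
Points are limma log2 fold changes of YSGr against SG averaged over the sexes (6 libraries each) and lines their 95% intervals, for the 37 genes grouped by role. The 10 genes that rose are red, Nfix, which fell, is blue, and the intervals of Nrgn and Camk2a are the widest of the 37.

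The first step of the program is the transcription factor switch. Neurod1, the basic helix-loop-helix factor that starts granule neuron differentiation (chr2:79452521-79456751, mm10, minus strand), was at 9.46, 9.15 and 9.34 log2 CPM in SG males and at 9.11, 9.13 and 9.08 in SG females. In YSGr it was at 9.15, 9.17 and 10.00 in males and at 10.18, 9.91 and 9.88 in females. YSGr male 9 and all 3 YSGr females lay above every SG library, while YSGr males 7 and 8 lay within the SG range. The difference averaged over the sexes was 0.51 (SE 0.14, 1.42-fold, adjusted p = 0.038), and the call was lost in 7 of 12 fits that each left out 1 library. Neurod2, a relative of Neurod1 found in later granule neurons, ran from 4.96 to 5.89 in SG and from 4.88 to 6.76 in YSGr, where YSGr female 11 was highest. Its fold change was 0.14 (SE 0.27, adjusted p = 0.76).

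Nfix, a nuclear factor I protein of maturing granule neurons (chr8:84699876-84800344), was the 1 member whose genotypes did not overlap. It was at 10.26, 10.40 and 10.22 in SG males, 10.36, 10.34 and 10.24 in SG females, 9.83, 9.66 and 9.75 in YSGr males and 10.07, 10.19 and 9.80 in YSGr females. All 6 YSGr libraries lay below all 6 SG libraries, as they did for 2.97% of tested genes, and no member lay wholly above, as 2.93% of tested genes did. Nfix fell by 0.42 on the log2 scale (SE 0.10, adjusted p = 0.016). Without SG female 5 its adjusted p was 0.052, and after quantile normalization the call was also lost. Its paralogs Nfia and Nfib, which act beside it in granule neurons, had fold changes of -0.23 (SE 0.10, adjusted p = 0.14) for Nfia and -0.12 (SE 0.10, adjusted p = 0.48) for Nfib. Both were lowest in YSGr male 8, at 9.17 for Nfia and 10.00 for Nfib, and Nfib changed sign after quantile normalization.

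Etv1, an ETS transcription factor of maturing granule neurons, ran from 4.99 to 6.03 in SG and from 5.72 to 7.14 in YSGr, with YSGr male 9 highest and SG male 2 lowest. Its fold change was 0.66 (SE 0.23, adjusted p = 0.078), with a 95% interval of 0.17 to 1.16. Rbfox3, the splicing factor recognised by the NeuN antibody, differed by 0.11 (SE 0.13, adjusted p = 0.59). Per kilobase of exon, mean levels over the 12 libraries ran in this role from 269 CPM for Neurod1 and 151 for Nfix down to 16.5 for Neurod2 and 5.27 for Etv1.

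Among migration, axon and cytoskeleton genes, 1 of 7 rose. Stmn2, a microtubule regulator of growing axons (chr3:8509360-8561606), was at 8.57, 9.06 and 8.56 in SG males and 8.36, 8.20 and 8.02 in SG females. It was at 8.52, 8.72 and 9.08 in YSGr males and 9.05, 9.25 and 8.90 in YSGr females. The females separated completely by genotype, while the males overlapped. The averaged difference was 0.46 (SE 0.13, 1.37-fold, adjusted p = 0.037), and 9 of 12 fits without 1 library lost the call. With all 12 libraries fitted, Dcx and Tubb3, 2 genes of early postmitotic neurons, showed small differences. In that fit those of Map2 and Mapt were nearer to that of Stmn2. Dcx, the microtubule protein of migrating neurons, had a fold change of 0.09 (SE 0.15, 95% interval -0.22 to 0.41), which turned to -0.02 without SG male 2. Tubb3, neuronal beta-tubulin and with 415 CPM per kilobase the most abundant member on that scale, had -0.09 (SE 0.12, -0.36 to 0.17), and 0.00 without SG male 2. Map2, a dendritic microtubule protein, had 0.38 (SE 0.17, adjusted p = 0.16), and Mapt, which encodes the axonal protein tau, had 0.41 (SE 0.13, adjusted p = 0.060). For Map2, SG male 2 was the lowest library at 8.27, against 8.81 to 9.08 in the other SG libraries. That low value raises the difference of Map2, and its difference without SG male 2 is not given here.

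The neurofilament genes Nefl and Nefm, of large calibre axons, varied most within this role. Nefl was at 3.65 to 5.33 in SG, and at 5.70, 7.84, 5.73, 4.40, 5.72 and 3.15 in YSGr 7 to 12. Nefm was at 3.88 to 5.35 in SG, and at 5.22, 7.66, 5.57, 4.34, 5.39 and 3.73 in the same YSGr libraries. YSGr male 8 stood 2.11 log2 above the next library for Nefl and 2.09 for Nefm, and YSGr female 12 was the lowest of all 12 for both. Their fold changes were 0.66 (SE 0.46) for Nefl and 0.56 (SE 0.41) for Nefm, neither past the threshold. Without YSGr male 8 they were 0.30 and 0.19. The gene models overlap (Nefl at chr14:68083863-68089095 lies inside Nefm at chr14:68082590-68124846), and whether counting used strand was not given, so part of their reads may be shared.

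Of the adhesion molecules and synapse organisers, Car10 and Nrxn3 rose. Car10, a secreted carbonic anhydrase-related protein that binds neurexins (chr11:93098028-93601749), was at 5.22 to 5.62 in SG. In YSGr it was at 5.99, 6.29 and 6.52 in males and 6.10, 6.72 and 5.48 in females, so that 5 of 6 YSGr libraries lay above every SG library and YSGr female 12 lay within the SG range. The difference was 0.75 (SE 0.17, 1.68-fold, adjusted p = 0.016), past the threshold in all 12 fits that left out 1 library. Nrxn3, the presynaptic neurexin 3 (chr12:88722876-90334935), was at 4.60, 4.17 and 4.73 in SG males, 4.44, 4.22 and 4.24 in SG females, 5.98, 6.19 and 5.63 in YSGr males and 4.32, 5.83 and 3.94 in YSGr females. YSGr males 7 to 9 and female 11 were well above the highest SG library, whereas females 10 and 12 lay within or below the SG range. Its difference was 0.91 (SE 0.26, 1.88-fold, adjusted p = 0.040), and 9 of 12 fits without 1 library lost the call.

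The cerebellins are secreted by granule neurons and join presynaptic neurexins to receptors on Purkinje cells. Cbln3, a late gene restricted to granule neurons, was at 5.11 to 6.07 in SG, and at 8.55, 5.90 and 8.21 in YSGr males and 5.09, 7.97 and 5.30 in YSGr females. It split YSGr into 3 libraries well above SG (7, 9 and 11) and 3 at or below the SG level (8, 10 and 12). The fold change of 1.02 had an SE of 0.51 (adjusted p = 0.21), and without YSGr female 11 it was 0.55. Cbln1 showed the same split over smaller differences, with 8.65, 8.66 and 8.96 in YSGr 7, 9 and 11, 7.39, 7.52 and 7.92 in 8, 10 and 12, and 7.68 to 8.22 in SG (fold change 0.32, SE 0.25, adjusted p = 0.42, and 0.12 without YSGr female 11 or 0.54 without YSGr male 8). The contactins Cntn1 and Cntn2, cell adhesion proteins of extending axons, had fold changes of 0.19 (SE 0.16) and 0.08 (SE 0.14). Without SG male 2 and YSGr male 8 both turned below 0, to -0.02 and -0.06.

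**Figure D3:**
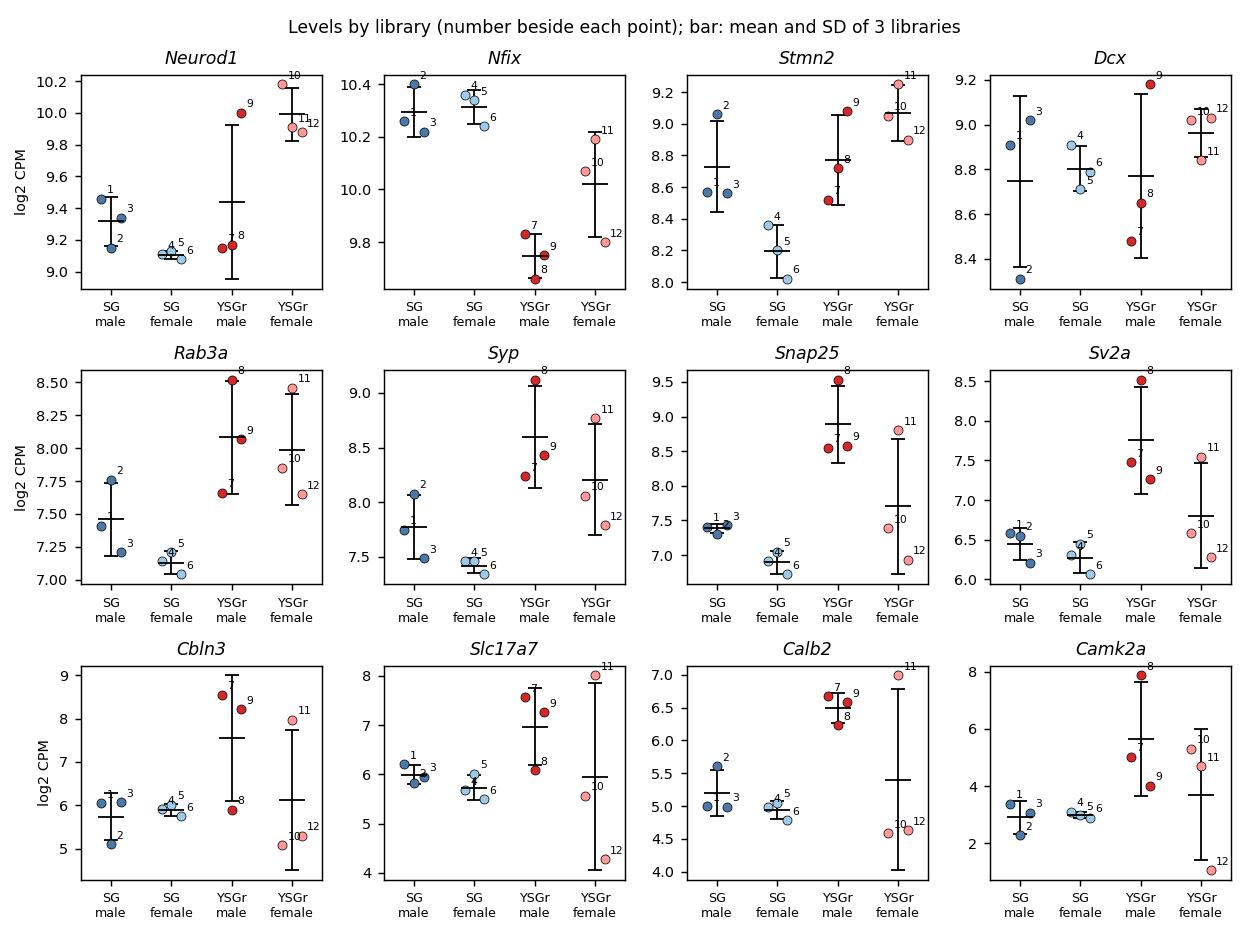
Each panel is 1 gene, each point 1 library with its number, and the bars are the mean and SD of 3 libraries in log2 CPM, with a separate vertical scale in each panel. Nfix is lower in all 6 YSGr libraries, and Stmn2 separates by genotype in females. Syp, Snap25 and Sv2a are above every SG library in 7, 8, 9 and 11, and Rab3a in 8, 9, 10 and 11. Cbln3 and Slc17a7 are high in 7, 9 and 11 but not in 8, 10 and 12.

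The vesicle and release genes gave the largest number of calls. Snap25, a membrane SNARE of the fusion complex (chr2:136713453-136782428), was at 7.41, 7.31 and 7.43 in SG males and 6.91, 7.05 and 6.72 in SG females. It was at 8.55, 9.53 and 8.58 in YSGr males and 7.39, 8.80 and 6.93 in YSGr females. The males separated completely. Of the YSGr females, 11 lay above every SG library, 10 above the SG females and SG male 2, and 12 among the SG females. The difference was 1.16 (SE 0.27, 2.23-fold, 95% interval 0.58 to 1.74, adjusted p = 0.015), and all 12 fits without 1 library kept the call. In a fit without sex as a term the call was lost.

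Rab3a, the GTPase that tethers vesicles (chr8:70754679-70758677), was at 7.41, 7.76 and 7.21 in SG males, 7.14, 7.21 and 7.04 in SG females, 7.66, 8.52 and 8.07 in YSGr males and 7.85, 8.46 and 7.65 in YSGr females. Females separated fully, and in males only YSGr 7 lay below the highest SG library. Rab3a rose by 0.74 (SE 0.17, 1.67-fold, adjusted p = 0.013). Syp, the vesicle membrane protein synaptophysin (chrX:7638471-7653256), was at 7.75, 8.08 and 7.49 in SG males, 7.46, 7.46 and 7.34 in SG females, 8.24, 9.12 and 8.43 in YSGr males and 8.06, 8.77 and 7.79 in YSGr females. Within each sex the YSGr libraries all lay above the SG libraries. Syp rose by 0.81 (SE 0.18, 1.75-fold, adjusted p = 0.014). Rab3a and Syp kept their calls in all 12 fits without 1 library and in all 9 other alternatives.

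Sv2a, a vesicle glycoprotein (chr3:96181151-96195521), was at 6.06 to 6.58 in SG, at 7.48, 8.52 and 7.26 in YSGr males and at 6.58, 7.55 and 6.28 in YSGr females. The 3 males and female 11 were well above all SG libraries, and female 10 was level with the highest of them. Sv2a rose by 0.92 (SE 0.24, 1.89-fold, adjusted p = 0.024), a call lost without SG male 3, SG female 4 or SG female 6 and without sex as a term. Syt1, the calcium sensor of fast release (chr10:108497650-109010982), was at 4.77 to 5.73 in SG, at 6.74, 7.79 and 6.71 in YSGr males and at 5.93, 7.04 and 4.79 in YSGr females. It rose by 1.19 (SE 0.33, 2.28-fold, adjusted p = 0.034), and the call was lost in 7 of 12 fits without 1 library, among them those without SG male 2 and without YSGr male 8. In both genes YSGr female 12 stayed within the SG range.

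The other 6 vesicle and release genes did not pass the threshold. Of the synapsins, which hold vesicles in reserve, Syn1 had a fold change of 0.63 (SE 0.21, adjusted p = 0.064). For Syn2 it was 0.43 (SE 0.23, adjusted p = 0.24), and 0.25 without YSGr female 11. Chgb, a granin of dense-core vesicles, had 0.76 (SE 0.25, adjusted p = 0.064), and Vamp2, the vesicle SNARE, had 0.46 (SE 0.17, adjusted p = 0.10). Without YSGr female 11 these were 0.47 and 0.30. The complexins, which clamp and promote fusion, went apart: Cplx1 had 0.49 (SE 0.16, adjusted p = 0.070) and Cplx2 -0.19 (SE 0.13, adjusted p = 0.37). Cplx2 was below every SG library in YSGr 7, 8, 9 and 12, and above every one in YSGr 11. Per kilobase Cplx2 was the most abundant vesicle member at 130 CPM, ahead of Rab3a at 96.4 and Cplx1 at 91.4, while Syt1 was lowest at 8.96.

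To show what sequence lies upstream of the vesicle genes, the role with the most calls, 250 bases before to 50 after each RefSeq start (GRCm38.p6) were searched. Windows were matched for 27 of the 37 members, 41 windows in all. On both strands, the E-box CAGATG, a form bound by Neurod factors, was in 17.1% of member windows and 17.2% of all 32851 windows. The E-box CAGCTG was in 17.1% and 16.3%. TTCAGCACC, the left part of RE1, the element of the neuronal repressor Rest, was in 1 member window (2.4%) and in 0.371% of all windows, and was added after the data were seen. The full RE1 with both parts was in 0 member windows and 0.012% of all, and the nuclear factor I pair in 0 and 0.037%. Every search asked for an exact match. In Syn1, ggtcag stands where the full RE1 search asked for GGACAG, a difference of 1 base. A match is a description of letters. In the 4 stretches below the capitals mark TTCAGCACC in Syn1 and CAGCTG in the others, and no stretch overlaps an annotated exon. They are Syn1 (chrX:20921082-20921168, minus strand, motif 232 bases before the start), Sv2a (chr3:96180977-96181063, plus, 229 before), Rab3a (chr8:70754869-70754982, plus, 185 before a start inside the gene) and Syt1 (chr10:109009112-109009202, minus, 31 before a start inside the gene).
Syn1: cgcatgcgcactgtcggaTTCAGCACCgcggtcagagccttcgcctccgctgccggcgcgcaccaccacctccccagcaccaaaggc
Sv2a: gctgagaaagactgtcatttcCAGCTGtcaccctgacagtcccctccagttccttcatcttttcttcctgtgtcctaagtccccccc
Rab3a: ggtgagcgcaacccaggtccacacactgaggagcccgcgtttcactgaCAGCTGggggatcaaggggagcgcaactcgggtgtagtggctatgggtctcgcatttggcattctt
Syt1: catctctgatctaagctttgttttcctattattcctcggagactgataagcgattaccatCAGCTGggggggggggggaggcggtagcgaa

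The vesicular glutamate transporters differed in pattern. Slc17a7 (VGLUT1), the transporter of mature granule neurons, was at 5.50 to 6.21 in SG, at 7.56, 6.08 and 7.26 in YSGr males and at 5.57, 8.01 and 4.28 in YSGr females. As for Cbln3, YSGr 7, 9 and 11 were high, and YSGr female 12 was 1.23 log2 below the next library. Its fold change was 0.60 (SE 0.48, adjusted p = 0.43), and without YSGr female 11 it was 0.08. Slc17a6 (VGLUT2), the transporter of immature granule neurons and of many brainstem neurons, was at 6.35 to 6.78 in SG and at 6.76, 7.56, 6.52, 6.59, 6.71 and 7.26 in YSGr 7 to 12. Here libraries 8 and 12, not 7, 9 and 11, were above SG (fold change 0.30, SE 0.18, adjusted p = 0.28, and 0.15 without YSGr male 8).

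Of the calcium signalling genes, Camk2b, the beta subunit of calcium/calmodulin kinase II (chr11:5969644-6066362), rose by 0.72 (SE 0.19, 1.65-fold, adjusted p = 0.031). It was at 6.59 to 6.88 in SG, at 7.68, 8.13 and 7.35 in YSGr males and at 6.68, 7.90 and 6.80 in YSGr females, with 10 and 12 inside the SG range. The call was lost in 6 of 12 fits without 1 library: SG male 2, SG male 3, each SG female and YSGr male 8. Calb2 (calretinin), a calcium buffer of granule neurons and unipolar brush cells, was at 4.79 to 5.61 in SG, 6.67, 6.23 and 6.58 in YSGr males and 4.59, 6.99 and 4.63 in YSGr females (fold change 0.88, SE 0.34, adjusted p = 0.11, and 0.48 without YSGr female 11).

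Camk2a and Nrgn, abundant in forebrain neurons, had the widest intervals. Camk2a had 99, 42, 78, 83, 71 and 66 estimated reads in SG 1 to 6 and 324, 2201, 154, 375, 248 and 17 in YSGr 7 to 12. Nrgn had 4, 20, 12, 15, 9 and 16 in SG and 5, 781, 15, 57, 12 and 9 in YSGr. YSGr male 8 stood 2.56 log2 above the next library for Camk2a and 3.75 for Nrgn. The fold change of Camk2a was 1.71 (SE 0.71, adjusted p = 0.13) and that of Nrgn 1.16 (SE 0.93, adjusted p = 0.43), and without YSGr male 8 they were 1.15 and 0.13. The forebrain markers summed to 69.3 to 85.9 CPM in SG and 69.5 in YSGr male 8, against 90.5 to 126.9 in the other YSGr libraries. Such a sum weights abundant genes most. The mean over those tested of log2 CPM minus the SG mean was highest in YSGr male 8, at 0.57. Next came YSGr female 10 at 0.41, and the median in YSGr male 8 was -0.38. Lamp5, a single gene of the same list, was highest in YSGr male 8 but had no reads in some other library.

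By library, the 37 genes did not move as 1 block. The median of the members minus their SG mean was 0.46, 0.85 and 0.65 in YSGr males 7, 8 and 9, and 0.11, 0.81 and -0.14 in YSGr females 10, 11 and 12. The numbers above every SG library were 18, 22 and 28 of 37 in the males and 10, 28 and 6 in the females. Of all tested genes, 24.0, 32.1 and 27.9% lay above in these males and 23.2, 24.1 and 22.3% in these females. The numbers below every SG library were 5, 6, 4, 4, 3 and 11 in YSGr 7 to 12. In the same order, 26.3, 32.8, 26.9, 22.6, 23.0 and 21.0% of tested genes lay below. Thus YSGr female 12 held more members below than above, and the vesicle members, on average over genes, stood at 0.70, 1.42 and 0.72 in the males and at 0.27, 1.11 and -0.19 in the females. Neurod1 was highest in YSGr female 10 and at the SG level in YSGr males 7 and 8, a different order from that of the vesicle members.

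**Figure D4:**
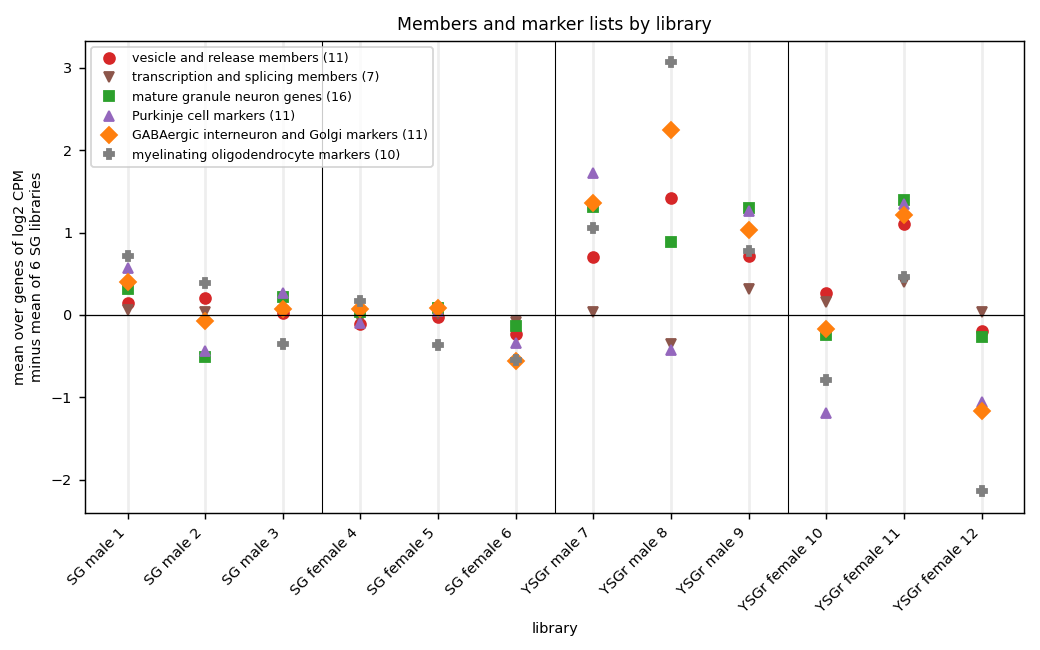
Points are means over the genes of a list of log2 CPM minus the mean of the 6 SG libraries, by library. Vesicle members stand at 0.70 or more in YSGr 7, 8, 9 and 11, Purkinje markers at 1.26 or more in 7, 9 and 11 and below 0 in 8, 10 and 12, and myelin markers reach 3.07 in 8 and -2.14 in 12.

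Markers of other cells varied over the same libraries. For their counts averaged over the sexes, 6.17% of all tested genes rose and 5.27% fell. The 11 Purkinje markers, of which none passed the threshold averaged over the sexes, summed to 327.6 to 692.2 CPM in SG, to 1733.7, 1267.0 and 1306.0 in YSGr 7, 9 and 11, and to 501.4, 227.0 and 221.4 in 8, 10 and 12. The Purkinje gene Pcp2 was at 6.88, 6.36 and 6.80 log2 CPM in 7, 9 and 11 and at 3.26 to 3.62 in the other 3, so Cbln3 and Slc17a7 were high where Purkinje markers were high. The 10 myelin markers, again with none past the threshold averaged over the sexes, summed to 1036.5 to 2463.5 CPM in SG, 11132.1 in YSGr male 8 and 373.5 in YSGr female 12, the YSGr libraries with the highest and lowest vesicle means. The 11 markers of GABAergic interneurons and Golgi cells, of which Lgi2 rose averaged over the sexes (1.81, adjusted p = 0.0032), summed to 102.1 to 180.8 in SG, 309.4 to 615.6 in YSGr males, 335.5 in female 11, and 81.5 and 59.9 in females 10 and 12. In males alone, the contrast in which 5 members rose, 1 Purkinje, 1 myelin and 2 GABAergic markers rose (Gad1, on both neuronal lists, Lgi2 and Ermn). There 10 of 11 Purkinje, 10 of 10 myelin and 11 of 11 GABAergic markers were above 0. Of all tested genes in males, 4.44% rose and 49.3% were above 0. In females 3 of 11 Purkinje, 1 of 10 myelin and 4 of 11 GABAergic markers were above 0, and none passed the threshold. In that contrast 31 of 37 members and 52.2% of all tested genes were above 0. Of 7 unipolar brush cell markers 2 rose averaged over the sexes (median 0.76), and their sums were 231.7 to 286.0 CPM in SG and 345.1 to 520.8 in YSGr, highest in 9 and 11. The member Calb2 is 1 of these 7 and adds to the sums, but was not among the 2 that rose. Of 9 microglia and macrophage markers 3 rose (357.3 to 417.3 CPM in SG, 516.2 to 870.6 in YSGr), and of 9 endothelial and mural markers 5 fell (186.8 to 287.5 in SG, 106.9 to 232.1 in YSGr). The brainstem and cerebellar nuclei markers summed to 388.3 in YSGr male 8 and to 275.7 or less in every other library. That list includes the member Slc17a6, itself highest in YSGr male 8, so the sum is partly the members' own values. No marker on the Purkinje, GABAergic or myelin lists was at the table's lowest value in any library. How much of the members' difference these cells carry was not tested.

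Genes of the same pathways that are no members were counted from lists taken with the members. The shares over all tested genes were 6.17% for a rise and 5.27% for a fall. Of 32 other vesicle and release genes 12 rose and none fell (median 0.71), among them Rab3c (0.95, adjusted p = 0.0034) and Snap91, an endocytic adaptor of nerve terminals (0.97, adjusted p = 0.0022). That count of 12 was 6 without SG female 4 or 5, 4 without SG female 6 and 7 without YSGr female 10. Of 18 other postsynaptic and trans-synaptic scaffold genes 4 rose and none fell (median 0.40), among them Dlg2 (0.97, adjusted p = 0.012). Of 24 other cytoskeleton and axon genes 4 rose, with the splicing factor Rbfox1 at 0.89 (adjusted p = 0.00040), and Crmp1, a semaphorin signalling protein, fell (-0.64, adjusted p = 0.0050). Of 16 mature granule neuron genes 2 rose (median 0.75): Camk4, a calcium-dependent kinase (1.47, adjusted p = 0.00068), and Cadps2, which primes dense-core vesicles (0.59, adjusted p = 0.042). The granule receptor subunit Gabra6 differed by 0.74 (adjusted p = 0.34). Of 18 lineage factors 1 rose, near the share over all tested genes, and 2 fell (median 0.05). Myt1l, which represses non-neuronal genes, rose (1.19, adjusted p = 0.0063). Barhl1 (-0.49, adjusted p = 0.021) and the neuronal gene repressor Rest (-0.68, adjusted p = 0.040) fell.

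The study's title asks about sex. In females alone, 2 of 37 members rose and none fell, against 1.15% of tested genes that rose and 1.87% that fell. They were Neurod1 (0.89, SE 0.20, adjusted p = 0.034) and Stmn2 (0.87, SE 0.18, adjusted p = 0.022), and the median of the 37 was 0.38. In males alone, 5 rose and 1 fell, against 4.44% and 3.42% of tested genes, with a median of 0.62. They were Nrxn3 (1.43, SE 0.37, adjusted p = 0.038), Snap25 (1.50, SE 0.38, adjusted p = 0.036), Syt1 (1.69, SE 0.46, adjusted p = 0.045), Sv2a (1.31, SE 0.33, adjusted p = 0.037) and Camk2b (0.98, SE 0.27, adjusted p = 0.048), and Nfix fell (-0.55, SE 0.14, adjusted p = 0.037). No member was called in both sexes. In males none passed when any 1 of the 6 SG libraries was left out, without YSGr male 8 the 1 gene that passed was none of these 6, 2 passed without YSGr male 7 or without YSGr male 9, and 12 passed without YSGr female 11. In females none passed without SG female 4, 5 or 6 or without YSGr female 10 or 11, and 1 passed without SG male 3.

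The difference between the sexes' effects was tested directly. By limma 0 of 37 members passed (0.00708% of tested genes did), and 3 had an unadjusted p under 0.05: Stmn2 (0.83), Neurod1 (0.76) and Tubb3 (0.63), all with the effect higher in females and each with adjusted p = 0.43. The largest differences, for Camk2a (-2.03, SE 1.42), Cbln3 (-1.58, SE 1.03) and Nefl (-1.46, SE 0.91), did not pass, and the first turned to 0.06 when libraries were weighted. Between females and males within SG, 0 members passed (0.0354% of tested genes did), 1 had an unadjusted p under 0.05, and Nefl (-0.54), Stmn2 (-0.53) and Snap25 (-0.49) differed most. Within YSGr, 0 members passed (0.0779% did) and 10 had an unadjusted p under 0.05, of which Neurod1 was higher in females and 9 were lower. The largest differences within YSGr were those of Nefl at -2.00 (SE 0.65, adjusted p = 0.16), Camk2a at -1.95 (SE 1.01) and Nefm at -1.66 (SE 0.57). Without YSGr female 11 the last count became 12 members past the threshold.

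**Figure D5:**
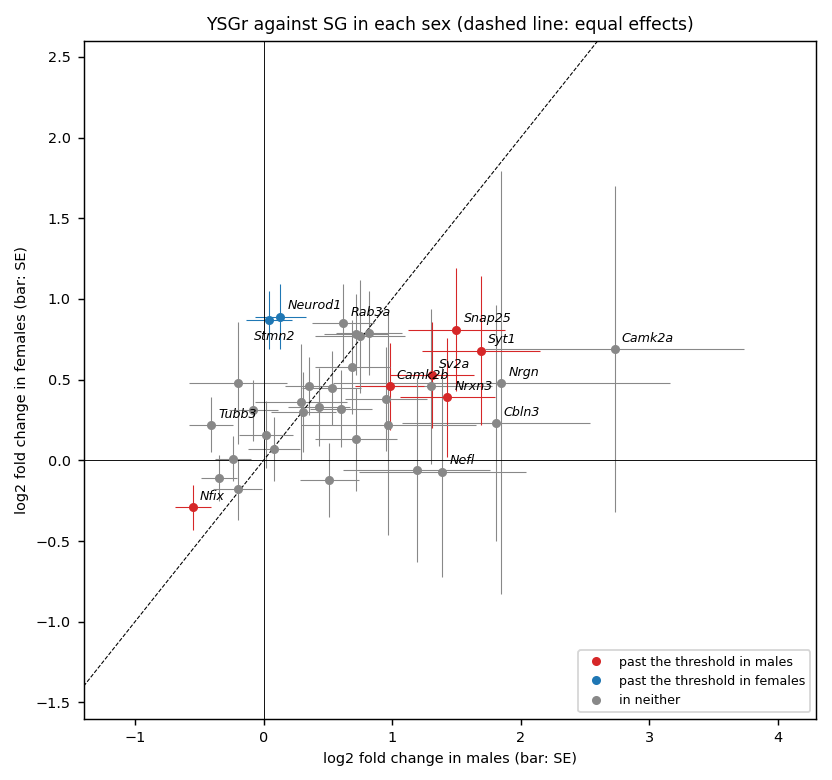
Each point is 1 of the 37 genes, with its log2 fold change of YSGr against SG in males on the horizontal axis and in females on the vertical axis, bars giving the SE. Neurod1 and Stmn2 lie above the dashed line of equal effects (0.89 and 0.87 in females), and Snap25, Syt1, Nrxn3, Sv2a and Camk2b lie to the right of it.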

How the data were processed

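Bulk RNA-seq was measured in 12 libraries (3 per genotype and sex). The authors deposited 1 table of log2 CPM. Per the submitters' processing notes they used Trimmomatic 0.33, RSEM 1.2.12, Bowtie2, Picard 1.95, edgeR 3.30.3 and mm10. What each tool did, the annotation and strand use were not given in the sources used here. Of 15672 rows, 22 were bare numbers and were left out. Estimated reads came from the step of the values (1 read is 0.1003 to 0.111 CPM, and 93.7 to 95.1% of genes under 200 reads were whole within 0.1).

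Genes above 0 log2 CPM in at least 3 libraries were fitted with limma 3.58.1 in R 4.3.3 (4 group means, mean-variance trend, two-sided, Benjamini-Hochberg adjustment, threshold 0.05), after tests on simulated data. Deposited values include a prior count, so folds of low genes are understated. Coordinates and exon lengths are from GENCODE M21. All 37 members are named, and elsewhere genes past the threshold with the largest change in each list. Members, lists and tests were chosen with earlier results of these data known. Alternatives were filters, scaling, trend, library weights, no sex term and each library left out.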

Additional observations from a re-analysis of the deposited data

Results flagged for a closer look

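Among 74 groups of 6 libraries (each member in each genotype), 6 held a library whose gap to the nearest other took more of the group's range than the 95% critical value of Dixon's test for 6 values. Chance flags about 1 in 20 such groups. In SG male 2, Etv1 was at 4.99 log2 CPM (5.74 to 6.03 in the other 5 SG libraries), Map2 at 8.27 (8.81 to 9.08), Cntn1 at 6.49 (7.44 to 7.59) and Cbln3 at 5.11 (5.75 to 6.07). Calb2 was high there, at 5.61 (4.79 to 5.05). The exons of Etv1, Map2 and Cntn1 span 13296, 16449 and 9433 bases, those of Cbln3 4866 and those of Calb2 1743. In SG male 2 genes of 6953 or more exonic bases were low, a class that does not hold Cbln3, and genes of 2891 or fewer were high, which was not tested as a source of these values. In YSGr male 8, Nfia was at 9.17 (9.56 to 9.75 in the other 5 YSGr libraries).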

How the results depend on the processing

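Of 11 members called averaged over the sexes, Car10, Snap25, Syp and Rab3a were called in all 12 fits without 1 library. The count of 11 was 6 with no filter on low genes, 6 with no mean-variance trend, 22 with library weights and 5 with 2 groups without sex. Leaving out 1 library gave 5 to 18: 7 without SG male 2, 6 without SG male 3, 5 without each SG female and 18 without YSGr female 12. In females the 2 calls became 1 with no filter, 1 with quantile normalization, 1 with no trend, 14 with weights and 0 to 3 without 1 library. In males the 6 calls became 1 with no filter, 1 with no trend, 18 with weights and 0 to 12 without 1 library, with 0 without any 1 of the 6 SG libraries and 12 without YSGr female 11. With SG male 2 and YSGr male 8 both left out, an alternative chosen after seeing the data, females gave 4, males 1 and lineage factors 6. The difference between the sexes' effects gave 5 with weights and 0 to 2 without 1 library. Females against males gave 0 to 0 in SG, and in YSGr 13 with weights and 0 to 12. With weights the other vesicle, scaffold, cytoskeleton, mature granule and lineage lists gave 23, 9, 12, 6 and 11 calls, and without 1 library 4 to 18, 2 to 7, 4 to 7, 1 to 4 and 1 to 4. The mature granule list gave 1 with no filter and 1 with no trend. Within 100 bases of the start the CAGATG share was 4.9% and that of the left part of RE1 0.0%. Signs turned for Neurod2 (0.00 without YSGr male 9, range without 1 library -0.10 to 0.32), Nfib (0.01, quantile), Dcx (-0.02 without SG male 2, -0.01 without YSGr male 9, range -0.02 to 0.17), Tubb3 (0.00, quantile, and 0.00 without SG male 2, range -0.15 to 0.00), Cntn1 (-0.09, weights, and -0.02 without both libraries), Cntn2 (-0.05, weights, -0.06 without both, -0.03 without SG male 2, -0.01 without YSGr female 11, range -0.03 to 0.16) and Camk2a between the sexes (0.06, weights). The cause was not tested. No paired analysis was possible because litters and animals were not given.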
